A study of Mus musculus with 12 samples.

Results

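In mouse embryonic fibroblasts (MEFs), 151 of the 657 sites with an m6A peak that differed between passages ran across the start or the stop codon of a transcript. They came from 221 of 1043 listed rows, each of which pairs a peak with 1 transcript. The rows were chosen by the deposited place label, which names the parts of the transcript that a peak covers, and every row with more than 1 label was taken. Rows with coding sequence and 3' UTR made up the stop side (166 rows), and rows with coding sequence and 5' UTR made up the start side (55 rows). MEFs of C57BL/6 embryos were grown in DMEM with fetal bovine serum, and young cells (P3, passage 3) were compared with senescent cells (P9, passage 9) without any other treatment. Each passage had 3 MeRIP libraries and 3 libraries of input RNA. Nothing in the labels says whether replicates were separate embryos or cultures. In MeRIP-seq, an m6A antibody captures fragments of RNA, and a peak is a stretch where captured fragments pile up.

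The 2 deposited tables, 1 for each direction, name their groups Treatment and Control. These were read as P9 and P3, because the row numbers, 840 higher and 203 lower, match the direction the study describes. A row holds a fold (the linear ratio of Treatment to Control) and a p-value from the authors' own comparison. All rows had passed a threshold, with folds of at least 1.50 or at most 0.667 and p-values up to 0.0490. Values per library were not used here, so read depth is unknown and no fold below carries a spread between replicates. Rows of 1 table and strand whose exon blocks overlapped or touched were merged, which gave 657 sites in all. Of these, 151 held a boundary row, 110 on the stop side and 41 on the start side, each in a gene of its own.

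As background, m6A is written on nascent mRNA by a methyltransferase complex with METTL3 as its catalytic subunit, and in mammalian mRNA it is known to gather around the stop codon and in the 3' UTR. Around the stop codon and in the 3' UTR it is best known for recruiting YTH proteins that speed mRNA decay, while m6A in the 5' UTR has been linked to cap-independent initiation. Antibodies against m6A also bind m6Am, a related mark on the first transcribed base next to the cap, so that a peak at the very 5' end can hold either mark.

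The start side could be set against sequence. RefSeq (GRCm38.p6, the assembly called mm10) gives the first 50 transcribed bases after annotated starts, read along the genome with any intron left in. The peaks of 9 start-side sites reached into them, 7 lower and 2 higher. The sequences below are shown because they place the edge of such peaks on the transcript. They are those of the sites with the smallest deposited p, up to 4 in each direction. Not shown are Prrc2b, Zcchc24 and Ranbp9, of which Ranbp9 had the largest change of the 9 (fold 0.429). The sequences run 5′ to 3′ from base 21 to 50 of these unspliced windows, with capitals for the bases inside the deposited peak.
Ppp1r14b: cccgggggctCCGCATGCTGCAGCTGCCCC
Lix1l: tccggggcccagctccgccggccaccGGGA
Fxr2: cggcagcggcgggtcccgggaccgaggcaG
Kcmf1: CGGACGCCGCGCCGCTGCCGGGAGCCGGCG
2510039O18Rik: cggtgaaggtGTCTGCTGGGGTGGCTGCGG
Dclre1a: TCGAAAGGTAAAGAAGgtaaagcaaccctc
They lie at chr19:6975068-6975097 (plus strand), chr3:96601153-96601182 (plus), chr11:69632991-69633020 (plus), chr6:72899930-72899959 (minus), chr4:147940915-147940944 (plus) and chr19:56548173-56548202 (minus), in this order. The first 4 peaks were lower in P9 MEFs and the other 2 were higher. The peak of Kcmf1 held all 50 bases from the first one on, whereas that of Ppp1r14b began at base 31, that of Lix1l at base 47 and that of Fxr2 at base 50. In Dclre1a the capitals end where the first exon block of the peak ends, and the small letters after it lie outside the exon blocks of the peak. The letters GGAC, a core form of the m6A consensus, were searched on the transcript strand only and with no other motif. They stood in the 50 bases of 3 of the 9 sites and of 18.9% of all 32851 RefSeq windows of this kind. This count covers whole windows. At Kcmf1 and Ranbp9 all 50 bases lay in the peak, while at Fxr2 the letters lay before it. Where a gene had several annotated starts, the window with the most bases in the peak was used. The first base of the window was A in 2 of the 9 sites and in 34.4% of all windows. Those 2 were 2510039O18Rik and Lix1l, whose peaks began at bases 31 and 47 and so did not hold it. Only the peaks of Dclre1a, Kcmf1, Prrc2b and Ranbp9 held the first base of their window, which was G in each. The peaks of Prrc2b and Ranbp9 also reached upstream of that base. There it need not be the first transcribed base of the RNA behind the peak. No such sequence was used here for the stop side.

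Peaks across the stop codon were mostly higher in P9 MEFs, and peaks across the start codon were not. On the stop side 96 of 110 sites were higher, which is 87.3% (95% Clopper-Pearson interval 79.6% to 92.9%), and on the start side 18 of 41, which is 43.9% (28.5% to 60.3%). Over all merged sites 79.9% were higher. The 2 sides differed by 43.4 percentage points (two-sided Fisher's exact test on sites, adjusted p = 8.43e-07 by Benjamini-Hochberg over the 5 shares compared here), with an odds ratio of 8.59 (95% interval 3.52 to 22.0). Counted as rows, 147 of 166 on the stop side (88.6%) and 23 of 55 on the start side (41.8%) were higher, against 80.5% of all rows. The intervals cover the counting of listed sites only.

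**Figure D1:**
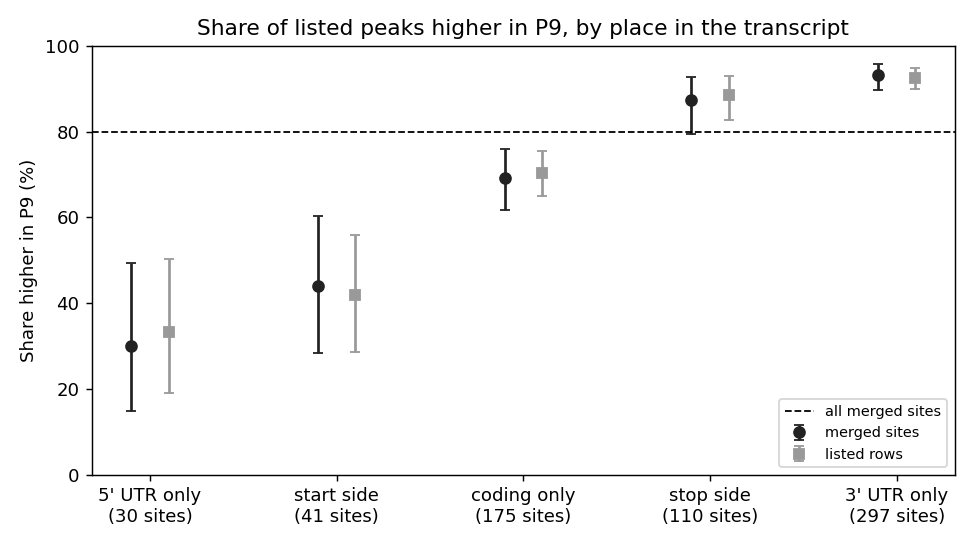
Share of sites (black circles) and of rows (grey squares) that were higher in P9 MEFs, in percent, for 5 places along the transcript, with 95% Clopper-Pearson intervals and all merged sites as the dashed line (79.9%). The share was 30.0% in the 5' UTR alone, 43.9% across the start codon, 69.1% in coding sequence alone, 87.3% across the stop codon and 93.3% in the 3' UTR alone, for sites.

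Each side stood apart from peaks wholly inside coding sequence, in opposite directions. Of 175 coding sites, 121 were higher (69.1%). The stop side lay 18.1 points above them (Fisher's exact test, adjusted p = 0.00137) and the start side below them, with a difference of -25.2 points (adjusted p = 0.00586). A difference between a boundary and the UTR next to it was not detectable over sites. Of 297 sites in the 3' UTR alone 277 were higher (93.3%), and the stop side differed from them by -5.99 points (Fisher's exact test, adjusted p = 0.0851, odds ratio 0.496 with an interval of 0.228 to 1.11). At a deposited p of at most 0.001 this difference was -23.0 points (10 of 14 against 34 of 36 sites, Fisher's exact test, adjusted p = 0.111). Of 30 sites in the 5' UTR alone 9 were higher (30.0%), and the start side differed from them by 13.9 points (Fisher's exact test, adjusted p = 0.323, odds ratio 1.81 with an interval of 0.610 to 5.65). Both intervals are wide enough to hold sizeable differences. Under that same limit on p, 10 of 14 stop-side and 1 of 7 start-side sites were higher, and the contrast of the sides no longer passed (Fisher's exact test, adjusted p = 0.111).

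Median deposited folds were close on the 2 sides. They are given as a description, since every row had passed the threshold on fold. Among higher sites the median fold was 1.70 on the stop side (interquartile range 1.55 to 1.99) and 1.76 on the start side (1.58 to 1.87). Among lower sites it was 0.618 on the stop side (0.538 to 0.640) and 0.605 on the start side (0.563 to 0.642). The most extreme values all lay on the stop side. A change of at least 2-fold was listed for 26 of 110 stop-side sites (23.6%) and 4 of 41 start-side sites (9.76%), beside 87 of 297 sites (29.3%) in the 3' UTR alone. The median deposited p was 0.0151 for higher and 0.00263 for lower start-side sites, and 0.0122 for higher and 0.0101 for lower stop-side sites.

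**Figure D2:**
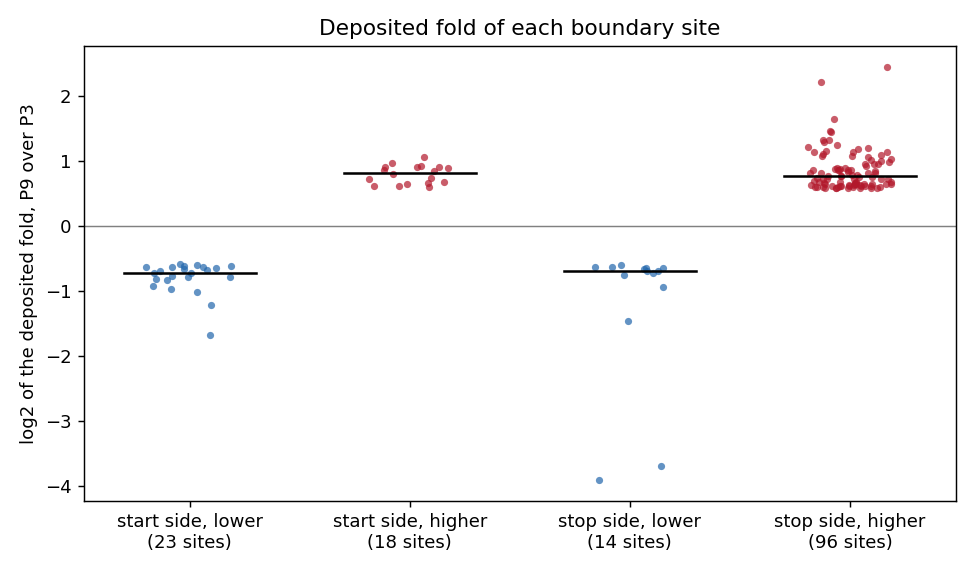
Log2 of the deposited fold (P9 over P3) of each boundary site, by side and direction, with each site as a point and the median as a bar; blue points were lower and red points higher. The empty band around 0 is the threshold of the deposited tables, and the 2 points near -4 are Zfp982 and Wnt10b on the stop side.

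The higher stop-side sites with the largest deposited folds lay in genes of varied function. Pdlim5, a PDZ and LIM domain scaffold on actin, had a fold of 5.46 (the authors' p = 0.0214) at chr3:142303251-142303370 on the minus strand. This peak crossed the stop codon of a transcript of only 1196 nt, 63666 nt upstream of the 3' end of the gene. Shtn1, which couples actin to adhesion in growing axons, had a fold of 4.63 (the authors' p = 0.0372), and the POU transcription factor gene Pou2f1 had 3.14 (the authors' p = 0.0316), the same value on both of its listed transcripts. Vill, a villin relative, followed with 2.71, and the magnesium transporter gene Nipal4 and the hydrolase gene Hdhd3 both had 2.50. Apart from Pdlim5 and Shtn1, none of the higher boundary folds reached that of Pou2f1. Another 2 genes among the 8 largest were Erdr1, with 2.75, and AC158605.2, with 2.45.

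Judged by the deposited p, another set of stop-side genes came first. Erdr1 had the smallest value (the authors' p = 6.31e-09), but it lies in the region shared by the X and Y chromosomes, where reads of the copies cannot be told apart, and its site pooled boundary and coding rows. Herc2, a giant ubiquitin ligase of the DNA damage response, was listed at chr7:56230894-56231553 with a fold of 1.56 (the authors' p = 2.19e-06) on a transcript of 15261 nt. The mitochondrial glutaredoxin gene Glrx2 had a fold of 1.70 (the authors' p = 2.34e-05), and its 4 listed transcripts gave 1.67 to 1.73. Dnajb9, which encodes a co-chaperone of the endoplasmic reticulum, had 1.50 (the authors' p = 3.39e-05), a value at the edge of the threshold. The splicing factor gene Hnrnph2 had 1.65 and was listed for 5 transcripts, with folds between 1.60 and 1.65. Cfap157, a gene of cilia and flagella, had 2.10, Commd5 had 1.68 and the membrane tether gene Jph2 had 1.56. Of these 8 genes, only Erdr1 and Cfap157 changed at least 2-fold.

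Beside 151 of all 633 listed genes (23.9%), 3 of 15 listed genes in a selection for DNA repair and cell division had a boundary site. Of 8 listed genes of TGF-beta, BMP and Wnt signalling 3 did, of which 1 was a higher stop-side site. That 1, the BMP type I receptor gene Bmpr1b, had folds of 2.08 to 2.30 over 4 transcripts, and the lymphatic growth factor gene Vegfc had 1.81. Gab2, an adaptor between growth factor receptors and PI3-kinase, had 1.71. All 3 genes of the division and repair selection were higher on the stop side, where 96 of 110 sites were higher. The mitotic cyclin gene Ccnb2 had 1.76, the condensin subunit gene Ncapg2 1.55 and the DNA damage kinase gene Atm 1.55. Repair genes outside the selection were found on either side, such as Dclre1a (start side, higher, 1.53) and Fen1 (stop side, higher, 1.51). Xrn1, the main exonuclease that degrades mRNA from its 5' end, had 1.76.

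Only 14 stop-side sites were lower in P9 MEFs, and they held the most extreme boundary values. Zfp982, a zinc finger gene, had deposited folds of 0.0665 and 0.0802 on its 2 transcripts (the authors' smaller p = 0.0186). For Wnt10b, which encodes a Wnt ligand, the row across the stop codon had 0.0836 (the authors' p = 0.0141), while a coding row of the same site, which holds 7 rows in all, had 0.0769. Mecom, a zinc finger transcription factor gene of blood stem cells, had 0.361 (the authors' p = 0.0186), and the dystrobrevin gene Dtnb had 0.518. The smallest p-values belonged to milder changes. They were found in the transcriptional adaptor gene Ldb2 (fold 0.628, the authors' p = 2.24e-06), the scaffold gene Homer3 (0.638, the authors' p = 1.17e-05) and Cyth2, an exchange factor for ARF GTPases (0.620, the authors' p = 1.70e-05). The kinase genes Mast4 and Prkd2 had 0.606 and 0.644, Plpbp had 0.640 and 6430548M08Rik had 0.616.

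A single mitochondrial transcript was listed. The row of mt-Nd3, a subunit of respiratory complex I, covered the whole transcript of 348 nt with a fold of 0.595 (the authors' p = 0.000186), so its label says nothing of a position at the stop codon.

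On the start side, 23 sites were lower in P9 MEFs. Ppp1r14b, an inhibitor of protein phosphatase 1, had the smallest p of all lower rows, with a deposited fold of 0.524 (the authors' p = 1e-10). Ppp1cc, a catalytic subunit of the same enzyme, had 0.638 and 0.636 on its 2 transcripts (the authors' smaller p = 1.78e-06). A regulatory subunit of protein phosphatase 2A, Ppp2r2d, named after its value was seen, had 0.663 (the authors' p = 0.00162) in its row across the start codon, close to the edge of the threshold. The stop-side site of another phosphatase gene, Phlpp1, also named after its value was seen, was higher (1.56).

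Upf1, the central helicase of nonsense-mediated decay, had folds of 0.604 and 0.609 on 2 transcripts (the authors' smaller p = 0.000427), and a separate coding site of it was lower as well, with 0.663 (the authors' p = 0.0457). Fxr2, an RNA-binding protein of the fragile X family and the only 1 of 28 m6A writers, erasers and readers with a listed peak, had 0.632 (the authors' p = 0.000871). Lix1l had 0.559 (the authors' p = 1.66e-07). Boundary peaks of other genes with roles in RNA went both ways. They were higher at Prpf6 (1.73) on the start side and at Xrn1 (1.76) and Hnrnph2 (1.65) on the stop side. At Prrc2b on the start side the peak was lower (0.650).

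Among lower start-side sites the lipid transfer gene Stard10 had the largest change, with 0.312 (the authors' p = 0.00132), followed by the scaffold gene Ranbp9 with 0.429 and the adhesion receptor gene Nectin3 with 0.493. The ubiquitin ligase genes Smurf2, Kcmf1 and Zfp91 had 0.507, 0.582 and 0.660, of which Smurf2 acts on receptors of the TGF-beta family. Asxl1, a partner of the deubiquitinase BAP1 on chromatin, had 0.567, the corepressor gene Rcor1 0.577 and the kinase-like gene Stk40 0.616.

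Higher start-side sites numbered 18, and their largest deposited fold was 2.08, for the sphingomyelin synthase gene Sgms2, whose other listed transcript gave 1.57. Next came the kinase gene Cdkl3 with 1.96, the centrin gene Cetn4 with 1.89, Naa15, a subunit of an N-terminal acetyltransferase, with 1.88, the cell polarity gene Mpp5 with 1.88 and the cadherin gene Cdh10 with 1.87. The orphan receptor gene Gpr85 had 1.84 and Pogk had 1.81. The splicing factor gene Prpf6 had the smallest p (fold 1.73, the authors' p = 0.000631), followed by Zfp322a (1.60, the authors' p = 0.00102). The inositol transporter gene Slc5a3 had 1.64 and Extl3, a gene of heparan sulphate synthesis, 1.57. For Dnmbp, an exchange factor for CDC42, the row across the start codon had 1.73 (the authors' p = 0.0229), while a coding row of the same site had 1.57.

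Lower and higher start-side sites lay at different places relative to annotated starts. The 5' edge of the boundary rows was compared with the nearest RefSeq start of the gene in genome coordinates, introns included. Of 23 lower sites 18 lay within 300 nt of such a start, with a median distance of 128 nt. Of 18 higher sites 6 did, with a median of 3502.5 nt, and 11 lay over 1000 nt away. The limits were set after the distances had been seen, and no test was made. Among sites in the 5' UTR alone, 18 of 21 lower and 4 of 9 higher sites lay within 300 nt. The lower exceptions were Ppp2r2d (23334 nt), Stard10 (4176 nt), Slmap (1006 nt), Zfp91 (685 nt) and Xpo1 (577 nt). The higher sites near a start were those of Dclre1a, 2510039O18Rik, Dnmbp, Larp7, Cetn4 and Cdh10.

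**Figure D3:**
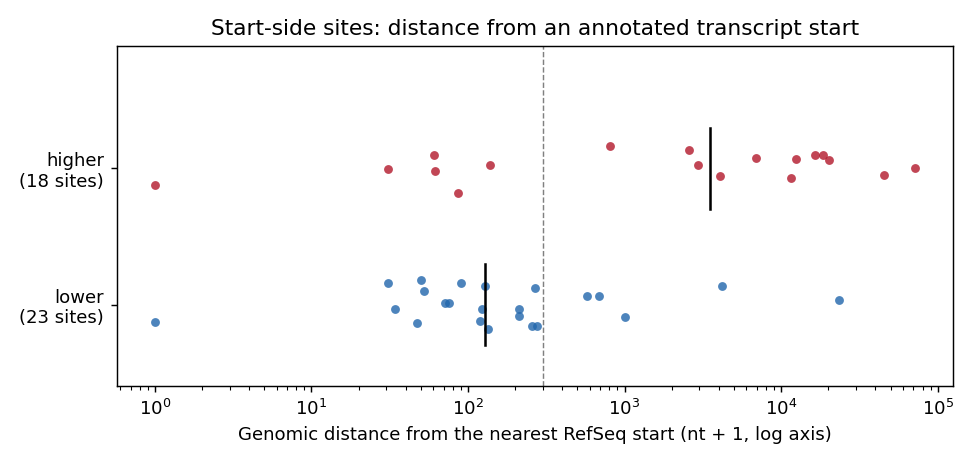
Genomic distance of the 5' edge of each start-side site from the nearest RefSeq start (nt plus 1, log axis), for 23 lower (blue) and 18 higher (red) sites, with the median as a vertical bar and 300 nt as the dashed line. Most lower sites sit left of the dashed line (18 of 23), and most higher sites sit to the right of it (12 of 18).

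The listed transcripts differed as well. The transcript was shorter than 1000 nt for 9 of 18 higher start-side sites, among them Prpf6 (359 nt), Mpp5 (413 nt) and Zfp322a (986 nt), and for 3 of 23 lower ones, among them Ppp1r14b (919 nt). On the stop side this held for 9 of 96 higher and 4 of 14 lower sites. At 6 stop-side and 6 start-side sites the peak took up at least 50% of the transcript, as at Mpp5 with 85.7% and Homer3 with 75.1%. A start codon on such a short transcript can lie far inside the gene. On transcripts of at least 1000 nt, 4 higher start-side sites lay within 300 nt of a start and 5 farther. For lower sites these counts were 16 and 4. On shorter transcripts they were 2 and 7 for higher sites, and 2 and 1 for lower sites. With transcripts of at least 1000 nt alone, an alternative added after the data were seen, 87 of 97 stop-side sites (89.7%) and 9 of 29 start-side sites (31.0%) were higher, a difference of 58.7 points (Fisher's exact test, adjusted p = 7.34e-09). The part of transcript choice in the contrast was not tested further.

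**Figure D4:**
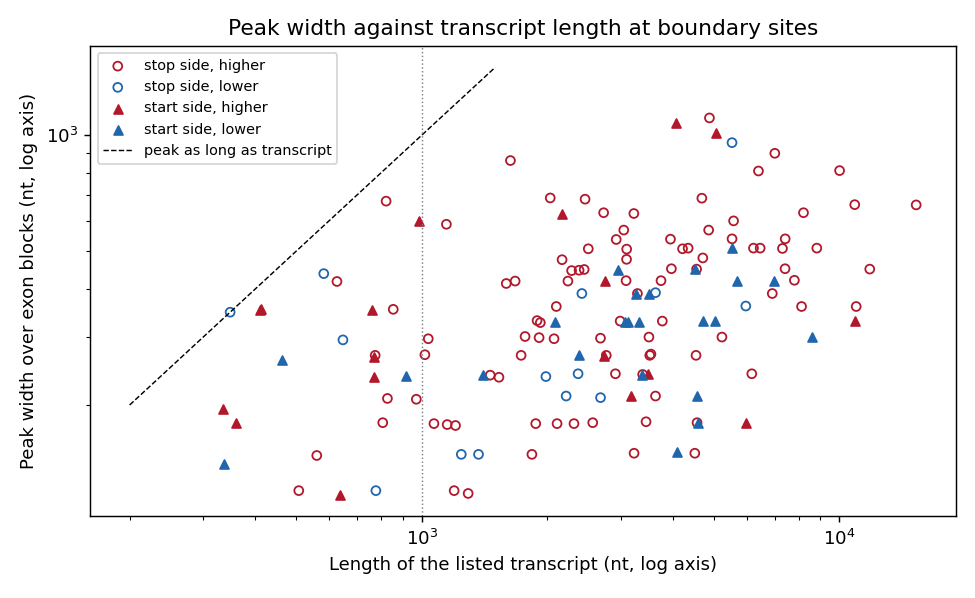
Peak width over exon blocks against the length of the listed transcript (both in nt, log axes) for 151 boundary sites; circles mark the stop side, triangles the start side, red higher and blue lower. The dashed line marks peaks as long as their transcript, where mt-Nd3 lies (348 nt), and the dotted line marks 1000 nt, left of which 9 of 18 higher start-side sites lie.

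Peaks on the 2 sides also differed in their exon structure. Of 41 start-side sites 29 (70.7%) had a peak of several exon blocks, against 39 of 110 (35.5%) on the stop side, 2 of 297 (0.673%) in the 3' UTR alone and 89 of 175 (50.9%) in coding sequence. The median width over exon blocks was 360 nt on the stop side, 328 nt on the start side, 299 nt in coding sequence and 210 nt in either UTR alone. On the stop side, 95 of 107 sites that matched a RefSeq gene ended within 10000 nt of its 3' end, with a median of 1798 nt for higher and 2129 nt for lower sites. Ldb2 was the only lower exception, and 11 higher sites, among them Pdlim5, Pou2f1 and Xrn1, lay farther upstream.

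The order of the 2 labels within a row differed between directions on the start side. With coding sequence named first, 19 rows were higher and 9 lower, and with the 5' UTR first, 4 were higher and 23 lower. Coding-first rows were 7 higher and 7 lower on the plus strand, and 12 higher and 2 lower on the minus strand. UTR-first rows were 1 higher and 10 lower on plus, and 3 higher and 13 lower on minus. Some sites gave several of these rows. Coding sequence stood first in 14 rows on either strand, so the order does not follow the genome. Its meaning is not stated in the labels or methods, and the pattern was seen before it was counted.

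The label of a site also depended on the transcript. Of the 151 sites, 64 had several rows, and 21 held a row with a single label beside the boundary row, 15 on the stop side and 6 on the start side. At 8 sites the smallest p belonged to such a row. Folds of 1 site usually differed little between transcripts, with a median ratio of the largest to the smallest of 1.03 over 49 stop-side and 1.04 over 15 start-side sites. The largest ratio was 1.51, in Mettl8, a mitochondrial tRNA methyltransferase gene named after its value was seen, whose boundary rows had 1.58 and whose row with the smallest p had 2.38.

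In 5 of the 151 genes another listed site went the opposite way. The lower stop-side peak of Mecom faced a higher coding peak (fold 1.68), and that of Plpbp a higher 3' UTR peak (2.51). The lower start-side peak of Stk40 faced a higher 3' UTR peak (1.97). In Zfp618 the stop-side peak (1.66) and a 3' UTR peak (1.57) were higher, while a 5' UTR peak was lower (0.301). Sirt1, an NAD-dependent deacetylase gene, was the fifth, and its stop-side peak had 1.52 and 1.51 on its 2 transcripts, beside a lower coding peak (0.483). No gene had boundary sites on both sides.

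Of all 633 genes with a listed peak, 151 (23.9%) had a boundary site. The gene lists used here were selections, so each count covers the genes chosen and not every gene of that role. Of 46 selected genes of translation initiation none had a listed peak. Eif2s3y, a gene of an initiation factor subunit that was not among them, had a higher stop-side site (1.53). Of 42 selected genes of termination and mRNA decay 5 had a listed peak, with Upf1 (start side, lower) and Xrn1 (stop side, higher) at a boundary. The exonuclease gene Dis3l (stop side, higher) was not among these 42. Among 62 senescence regulators 8 had a listed peak and 2 of them, Atm and Sirt1, a boundary site, both higher on the stop side. For 105 genes of DNA repair and cell division the numbers were 15 and 3, and for 79 genes of TGF-beta, BMP and Wnt signalling 8 and 3, the latter being Bmpr1b, Smurf2 and Wnt10b. Vegfc was the only 1 of 4 listed secreted factors with a boundary site, Gab2 the only 1 of 10 listed genes of insulin, PI3K and Ras-MAPK signalling, and Asxl1 the only 1 of 12 listed chromatin modifiers in the selections. Chromatin genes outside the selection also had boundary sites, such as Rcor1 (start side, lower) and Mbtd1 (stop side, higher). None of the 6 genes with a listed peak from the selection for extracellular matrix and adhesion had a boundary site. That selection left out the adhesion genes Nectin3 (start side, lower) and Cdh10 (start side, higher), which did. None of 38 markers of other cell types was listed at all, which says nothing of their level. Zinc finger genes were picked by symbol, and of 40 such listed genes 12 had a boundary site. Of these, 9 were higher on the stop side, Zfp982 was lower there, Zfp322a was higher and Zfp91 lower on the start side. The pick by symbol left out other zinc finger genes with stop-side sites, such as Ikzf2 (higher) and Mecom (lower). Genes of this family share sequence, and reads may be split between copies.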

How the data were processed

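Per the labels, MeRIP and input libraries of P3 and P9 MEFs were made with a stranded mRNA kit and processed on mm10. For the aligner, the caller, the test behind the p-values and the use of input, no source used here gives a name. The deposited fold is the authors' linear ratio per peak and transcript. The deposited p-values are the authors' own, with any adjustment unstated. Both hold the study's own comparison and could not be recomputed, because values per library were not used here. A site is given by its row with the smallest p, and shares were tested on sites. The boundary peaks, gene lists and tests were chosen with earlier results of these data known. Genes named were, on each side and in each direction, up to 8 with the largest change and up to 8 with the smallest p, up to 4 per gene list, and those with sites in both directions or named in the paper. Further genes, such as Fen1, Dclre1a, Prrc2b, Dis3l, Eif2s3y and Mbtd1, were named outside these rules with their values known. Of 151 sites 148 matched a RefSeq gene by symbol, synonym and chromosome. Merging and the exact test were tried on simulated tables, where each peak had 1 exon block and each site 1 label. Peaks of several blocks and sites with mixed labels were not simulated. All tables merged rightly. The test passed in 8 of 100 tables made without a difference and in 100 of 100 made with it. Alternatives changed the unit, thresholds, overlap and class. The tools were scipy 1.17.1, pandas 2.3.3 and numpy 2.4.6 in Python 3.11.15, with matplotlib 3.10.9 for figures.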

Additional observations from a re-analysis of the deposited data

How the results depend on the processing

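The contrast of the stop side with the start side kept its direction and passed (Fisher's exact test, adjusted p up to 1.48e-05) for rows, genes, a p of at most 0.01, merging at 50% overlap, class by the row with the smallest p, boundary labels alone, transcripts of at least 1000 nt and without Erdr1, mt-Nd3 and zinc finger genes, with differences of 41.7 to 61.1 points. The last pair was chosen after seeing the data, and the zinc finger genes left out included Ikzf2. Counting genes could not change the contrast, since each boundary site lay in a gene of its own. Merging at 50% overlap also left its counts as they were (96 of 110 and 18 of 41). Rows count some sites several times. With a p-value limit of 0.001 the contrast was 57.1 points, with 14 stop-side and 7 start-side sites left. At a change of at least 2-fold it was 63.5 points, with 26 and 4 sites left. Neither passed. Under these same settings the stop side lay 33.9 and 15.5 points from coding sequence and the start side -23.2 and -47.9 points, none past the threshold. With 2-fold changes the start side differed from the 5' UTR alone by -5.00 points in place of 13.9, with 4 sites against 10. Counted by genes, the stop side differed from the 3' UTR alone by -6.52 points and passed (Fisher's exact test, adjusted p = 0.0490, against 0.0851 to 0.534 otherwise). The median folds stayed within 1 SD of the folds over sites under the other transcript choice and for rows. No paired analysis was possible because no values per library were used here, and for the same reason no replicate could be left out. Depth per library is unknown, and peaks that missed the authors' threshold are not listed, so shares describe listed peaks only.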
